A study of Mus musculus with 8 samples.

Results

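The genes described here are 10 transcripts of the circadian clock, Arntl, Clock, Per1, Per2, Per3, Ciart, Nr1d1, Nr1d2, Dbp and Tef, taken by symbol from the 32285 genes listed in the single-cell RNA-sequencing matrices of mouse long bone periosteum. The study asked how a high-fat diet affects the nerves and cells of the periosteum, the connective tissue sheath on the outer surface of bone. Periosteal cells were released with collagenase and dispase from the left femurs and tibias of male C57BL/6J mice, 16 weeks old, fed either normal diet chow (ND) or high fat diet chow (HFD). The labels list 4 samples per diet, but the cells of each diet arrived in 1 matrix that does not tie a cell to a mouse, so each diet is 1 library. No difference between the diets could therefore be tested against the spread between mice, and every interval given here is a 95% interval of counting error only.

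The circadian clock is a transcriptional feedback loop that runs in almost every cell of the body. Arntl encodes BMAL1, which pairs with CLOCK, binds E-box elements and switches on the Per and Cry genes, whose proteins return to the nucleus and silence it, while the REV-ERB receptors encoded by Nr1d1 and Nr1d2 repress Arntl, and the PAR bZIP factors DBP and TEF pass the rhythm on through D-box elements. In mouse peripheral tissues Nr1d1 and Dbp crest earlier in the day than Per1 and Per2, Arntl crests around dawn in antiphase to them, and bone, tendon and immune cells all keep such rhythms. A clock transcript is therefore also a reading of the hour at which tissue was taken. For both diets that hour was not stated in the labels or methods read here, so hour and diet cannot be told apart in any comparison of the libraries.

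RefSeq promoter windows (GRCm38.p6), each with 250 bases before and 50 bases after a transcript start, were matched for 9 of the 10 genes in 14 windows. Per2 had no entry there and was not searched. They were searched on both strands for the E-box CACGTG, the D-box TTATGTAA or TTACGTAA, the REV-ERB and ROR element (RORE), an A and any pair of bases followed by TAGGTCA or TGGGTCA, and the cyclic AMP element (CRE) TGACGTCA, and 0 of the matches overlapped another. The E-box was present in 4 of the 14 windows, belonging to 3 genes (Per1, Tef and Ciart), against 7.15% of all 32851 promoter windows. Both D-box matches lay in 1 of the 14 windows, that of Per3, 205 and 158 bases before its start, against 1.06% of all windows. The 1 RORE match, in 1.6% of all windows, lay 27 bases after a start of Arntl. The CRE, in 1.79% of all windows, was found in 0 of the 14 windows. The stretches before the start are printed 5′ to 3′ for 5 of the genes, with motif letters in capitals. Ciart and Per3 were picked for printing after the search because they held matches. The windows of Dbp, Nr1d2 and Clock, not printed, held none of these motifs. Per1 (chr11:69098699-69098948, plus strand) holds 1 E-box at 166 bases before the start, Ciart (chr3:95882229-95882478, minus strand) holds 3 at 116, 58 and 44 bases, and Per3 (chr4:151044666-151044915, minus strand) holds its pair of D-boxes. Nr1d1 (chr11:98775378-98775627, minus strand) and the first Arntl window (chr7:113207215-113207464, plus strand) hold none of these letters before the start and are shown because Nr1d1 levels differed between the libraries in mesenchymal-like cells and Arntl levels between B cell-like clusters. A match is a stretch of letters, not a shown binding site.
Per1: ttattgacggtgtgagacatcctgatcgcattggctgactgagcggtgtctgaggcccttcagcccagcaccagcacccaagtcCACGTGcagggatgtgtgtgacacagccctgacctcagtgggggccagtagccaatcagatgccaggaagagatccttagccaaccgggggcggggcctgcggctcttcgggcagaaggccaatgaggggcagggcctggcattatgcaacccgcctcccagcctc
Ciart: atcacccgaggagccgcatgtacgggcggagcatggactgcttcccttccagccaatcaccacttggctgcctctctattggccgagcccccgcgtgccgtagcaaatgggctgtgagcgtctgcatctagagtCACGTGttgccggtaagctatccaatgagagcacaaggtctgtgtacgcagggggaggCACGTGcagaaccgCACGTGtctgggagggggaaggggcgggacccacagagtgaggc
Per3: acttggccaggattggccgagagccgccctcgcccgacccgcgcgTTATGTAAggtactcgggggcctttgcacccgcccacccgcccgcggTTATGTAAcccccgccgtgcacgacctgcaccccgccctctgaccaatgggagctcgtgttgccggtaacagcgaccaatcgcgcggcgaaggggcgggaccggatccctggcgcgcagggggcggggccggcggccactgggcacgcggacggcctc
Nr1d1: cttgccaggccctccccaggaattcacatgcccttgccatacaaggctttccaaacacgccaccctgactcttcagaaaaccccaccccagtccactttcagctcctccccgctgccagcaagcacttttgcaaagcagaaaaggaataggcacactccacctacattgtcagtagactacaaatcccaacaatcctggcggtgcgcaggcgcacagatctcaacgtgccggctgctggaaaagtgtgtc
Arntl: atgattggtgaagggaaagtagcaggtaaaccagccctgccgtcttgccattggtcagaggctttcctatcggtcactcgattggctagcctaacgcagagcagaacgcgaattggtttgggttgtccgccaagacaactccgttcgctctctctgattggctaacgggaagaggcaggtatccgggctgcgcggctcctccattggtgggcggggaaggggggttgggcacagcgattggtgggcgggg

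Barcodes were kept between 500 and 8000 detected genes when under 20% of their transcripts were mitochondrial, 6029 of 6314 in the ND library and 6224 of 6636 in the HFD library. They held 48106513 and 49411888 unique molecular identifiers (UMIs, 1 per captured transcript), with medians of 4610 and 4824 per cell. Only 15 barcodes occurred in both libraries, 14 of them kept. Cells were clustered without the 10 genes, and 24 of 28 clusters were named from marker genes. The 6 classes with at least 50 cells in each library were neutrophil-like (2405 ND and 2430 HFD cells), B cell-like (1549 and 1494), macrophage/monocyte-like (449 and 413), mesenchymal-like (407 and 667), T cell-like (291 and 204) and NK cell-like cells (135 and 109). Neutrophil-like cells were the largest class, with 39.9% and 39.0% of kept cells. The mesenchymal-like cells, which make up the periosteum proper, had UMIs of 8 of 8 mesenchymal markers in both libraries, and their share of kept cells was 6.75% in the ND library and 10.7% in the HFD library. In sums over all cells, fewer cells of a type and less RNA per cell cannot be told apart.

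Levels are given as UMIs per 1000000 UMIs of the same cells (UPM), and the libraries are compared by the log2 of the HFD level over the ND level. Because 3′-end counts are not scaled to transcript length, levels were compared between cells and not between genes. All 10 genes were detected in both libraries, at 191 (Ciart, HFD) to 3218 UMIs (Per1, ND). Free RNA was not removed from these counts, and no class present is known to lack a clock. Such RNA can add to the count of a gene and to the total of a class. A level can therefore lie above or below what a class itself expressed.

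**Figure D1:**
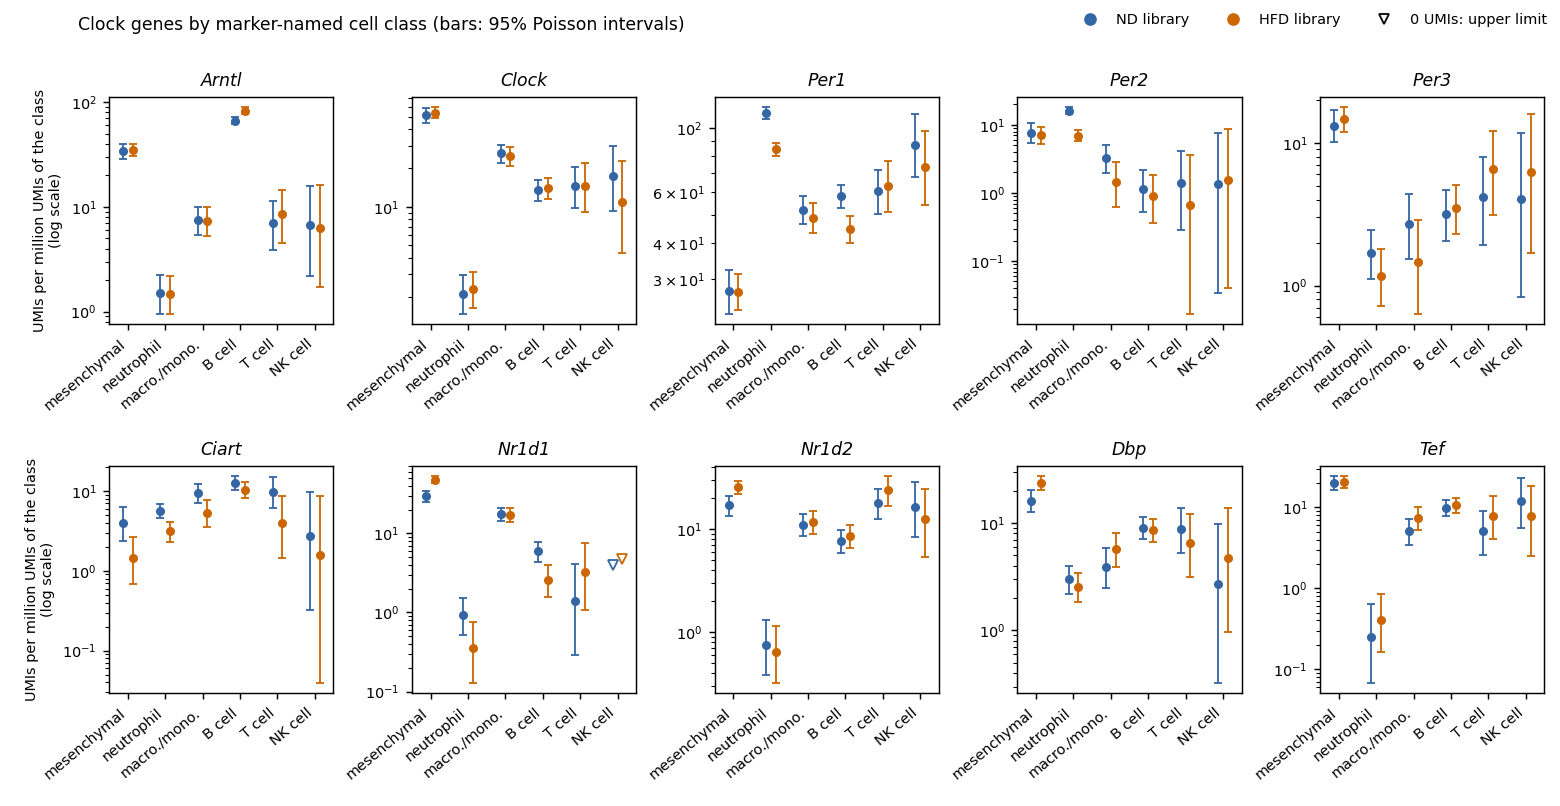
Level of each of the 10 clock genes (UMIs per 1000000 UMIs of the class, log scale) in 6 marker-named cell classes, with the ND library in blue, the HFD library in orange, bars for 95% Poisson intervals and open triangles for the upper limit where 0 UMIs were counted. Over both libraries, Per1 ran from 27.2 in mesenchymal-like to 98.1 in neutrophil-like cells, whereas Clock ran from 2.20 in neutrophil-like to 53.0 in mesenchymal-like cells.

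For each of the 10 genes, levels spanned a wider range over the 6 classes than the libraries differed within any of them. Mesenchymal-like cells, the fibroblasts, tendon cells and bone-forming cells of the periosteum, had the highest level of 6 of the 10 genes over both libraries (Per3, Dbp, Tef, Nr1d1, Nr1d2 and Clock). For Nr1d2 they were not separated from T cell-like cells, which had 17.7 UPM against 17.0 UPM in the ND library. Neutrophil-like cells had the highest Per1 and Per2, and B cell-like cells the highest Ciart and Arntl. For Per1 the neutrophil-like interval (94.8 to 101.6 UPM) overlapped that of NK cell-like cells (66.7 to 97.5 UPM). Neutrophil-like cells also had the lowest Tef (0.332 UPM), Nr1d2 (0.694 UPM), Arntl (1.48 UPM) and Clock (2.20 UPM), each below the interval of the class next above it. In the plot of levels by class the neutrophil-like points accordingly sit highest for Per1 and lowest for the activators in both libraries. For Per2 they sit highest in the ND library only. In the HFD library Per2 was at 6.98 UPM in neutrophil-like and 7.18 UPM in mesenchymal-like cells.

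Over all kept cells, the HFD library had less Per2 and Ciart, and somewhat more Arntl, Nr1d1 and Nr1d2. Past 1.5-fold, 0 of the 10 genes were higher in the HFD library, against 11.1% of all 15994 genes with at least 20 UMIs, and 2 were lower, Per2 and Ciart, against 4.38%. The 8 members that crest toward dusk (all but Arntl and Clock) had a median log2 ratio of 0.14, and the activators Arntl and Clock a median of 0.25, beside 0.03 for all genes. The dusk members thus did not lie on 1 side of 0. Nr1d1, Nr1d2, Dbp and Tef were above it with intervals that left out 0, Per1, Per2 and Ciart were below it with intervals that left out 0, and Per3 stood at 0.01 (-0.23 to 0.24). Mesenchymal-like cells, highest in Nr1d1, Nr1d2, Dbp and Tef, were 6.75% of kept cells in the ND and 10.7% in the HFD library. Level and class share therefore cannot be told apart in these sums. With equal class weights the Nr1d1 ratio was 0.28. With every cell thinned to 1000 UMIs, and so on fewer UMIs, Dbp was at -0.10 and Per3 at -0.66.

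**Figure D2:**
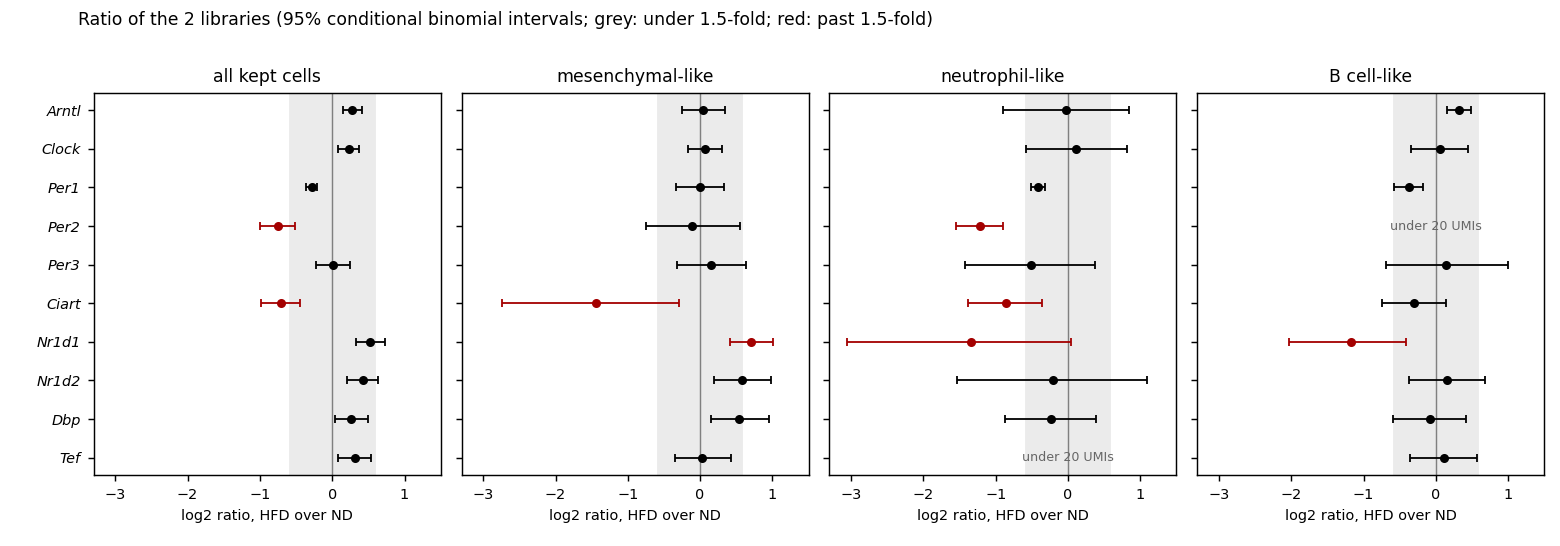
Log2 ratio of the HFD over the ND library for each clock gene over all kept cells and in 3 classes, with 95% conditional binomial intervals, a grey band for changes under 1.5-fold and red points past it. Per2 and Ciart lie left of the band over all kept cells, at -0.75 and -0.71, and Nr1d1 lies right of it in mesenchymal-like cells at 0.70 but left of it in B cell-like cells at -1.18.

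Arntl (chromosome 7, 113207465 to 113314126 in mm10, plus strand), the partner without which the loop stops, was counted 852 times in the ND library and 1060 times in the HFD library. That is 17.7 UPM (16.5 to 18.9) against 21.5 UPM (20.2 to 22.8), a log2 ratio of 0.28 (0.15 to 0.41). B cell-like cells held most of these transcripts, 529 ND and 642 HFD UMIs, and their levels of 66.6 UPM (61.1 to 72.6) and 82.9 UPM (76.6 to 89.6) did not overlap (log2 0.32, 0.15 to 0.48). Mesenchymal-like cells came next, at 33.9 UPM (28.9 to 39.5) in the ND and 35.1 UPM (30.8 to 39.7) in the HFD library (log2 0.05, -0.24 to 0.34). The T cell-like, macrophage/monocyte-like and NK cell-like classes followed at 7.61, 7.39 and 6.51 UPM over both libraries, with overlapping intervals, and neutrophil-like cells were at 1.49 UPM in the ND and 1.47 UPM in the HFD library.

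Within the B cell-like class Arntl followed the clusters of early B cell genes. It was highest in the cluster led by Vpreb1, Igll1 and Dntt, the surrogate light chain and recombination genes of B cell precursors, at 395 UPM (326 to 475) in the ND library and 495 UPM (428 to 570) in the HFD library. The cluster led by Vpreb3 and Pclaf, with cell division genes, had 139 UPM (124 to 157) and 158 UPM (141 to 175). The cluster led by Vpreb3 and Ebf1 was next, at 76.7 UPM and 68.0 UPM. The clusters led by Iglc2 and Igkc or by H2-Aa, light chain and antigen presentation genes of later B cells, had 20.5 and 7.86 UPM in the ND library and 11.8 and 9.04 UPM in the HFD library. Arntl thus spanned a wide range inside 1 class, and these clusters stood in the same order in both libraries. The diet comparison was not uniform over them, since the Vpreb1 cluster had a log2 ratio of 0.32 (-0.02 to 0.67) and the Iglc2 cluster one of -0.78 (-1.45 to -0.15). With each cluster given the same weight in both libraries, an alternative chosen after seeing the data, the log2 ratio of Arntl in B cell-like cells was 0.10 in place of 0.32.

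**Figure D3:**
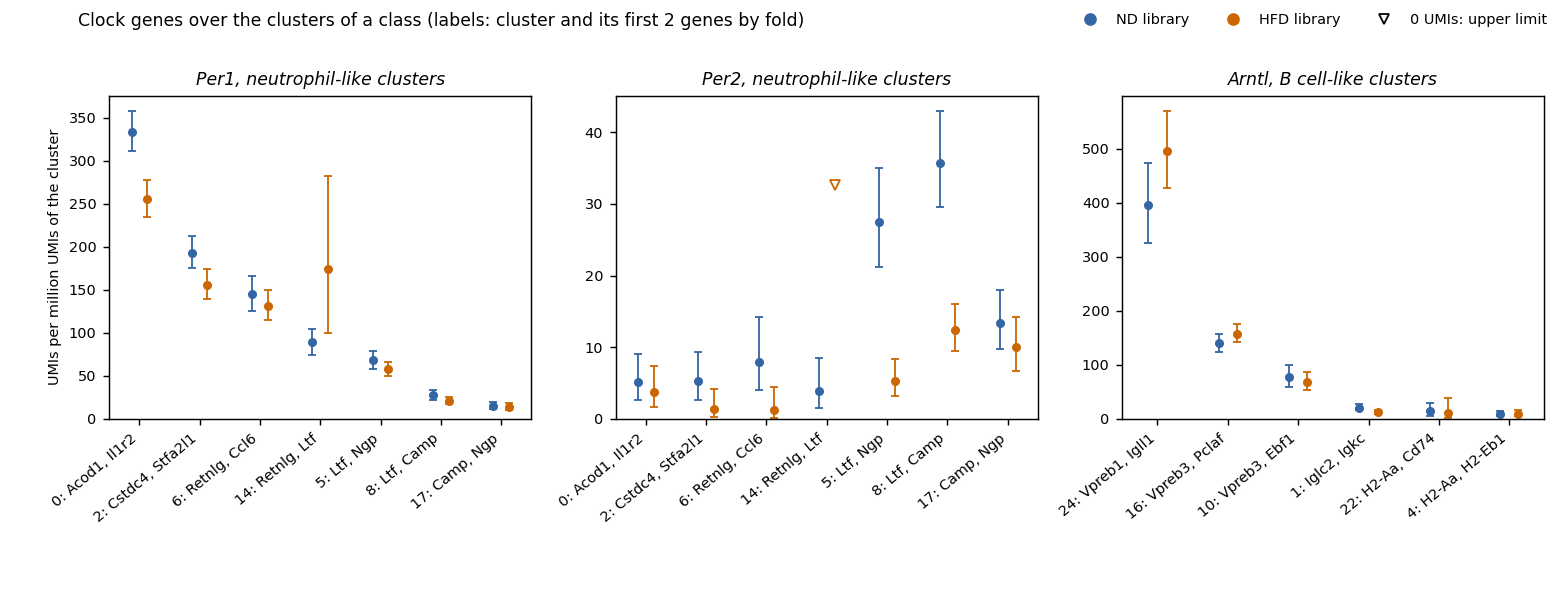
Levels of Per1 and Per2 over the 7 neutrophil-like clusters and of Arntl over the 6 B cell-like clusters (UMIs per 1000000 UMIs of the cluster), with 95% Poisson intervals and the ND library in blue and the HFD library in orange. Per1 is highest in the cluster led by Acod1 and Il1r2 (334 ND and 256 HFD), Per2 in a cluster led by Ltf and Camp (35.8 ND and 12.4 HFD), and Arntl in the cluster led by Vpreb1 and Igll1 (395 ND and 495 HFD).

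Clock (chromosome 5, 76209868 to 76304792, minus strand), the other subunit of the activator and a gene of weak rhythm in most tissues, had 708 ND and 852 HFD UMIs, 14.7 UPM (13.7 to 15.8) and 17.2 UPM (16.1 to 18.4), a log2 ratio of 0.23 (0.08 to 0.37). With each class given the same weight in both libraries that ratio was 0.00. Within the mesenchymal-like class it was 51.5 UPM in the ND and 54.0 UPM in the HFD library (log2 0.07, -0.17 to 0.31). Macrophage/monocyte-like cells had 26.1 and 24.7 UPM (log2 -0.08, -0.42 to 0.27), and T cell-like cells 14.4 UPM in both libraries. With every cell thinned to 1000 UMIs the mesenchymal-like ratio was 0.80, on fewer UMIs and given without an interval. The 1 class past 1.5-fold was NK cell-like, lower in the HFD library at 13 against 7 UMIs (log2 -0.63, -2.24 to 0.75), where 8.0% of 5800 genes were lower and 10.4% higher. An unnamed cluster led by Fabp4 and Ly6c1 reached 76.1 UPM (56.1 to 101) and 58.1 UPM (45.6 to 72.9), the range of the mesenchymal-like class.

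Per1 (chromosome 11, 69095217 to 69109960, plus strand), the period gene that also answers within minutes to cyclic AMP and glucocorticoids, had the most UMIs of the 10. It was counted 3218 times in the ND library and 2715 times in the HFD library, 66.9 UPM (64.6 to 69.2) and 54.9 UPM (52.9 to 57.1), a log2 ratio of -0.28 (-0.36 to -0.21). Neutrophil-like cells carried 1812 and 1440 of these UMIs, at 113 UPM (108 to 118) and 84.4 UPM (80.1 to 88.9), and had a log2 ratio of -0.42 (-0.52 to -0.32). Over the alternative settings the neutrophil-like ratio lay between -0.46 and -0.23, so it reached outside that interval. B cell-like cells were also lower in the HFD library, at 58.1 UPM (52.9 to 63.6) and 44.7 UPM (40.1 to 49.6). Neither class passed 1.5-fold, but in both the library intervals were apart. Mesenchymal-like cells differed from them in that the level was 27.2 UPM in both libraries (log2 -0.00, -0.33 to 0.33), and T cell-like cells had 60.4 and 63.0 UPM (log2 0.06, -0.34 to 0.45).

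Among neutrophil-like clusters the highest levels of Per1 and Per2 lay in different ones. Per1 was highest in the cluster led by Acod1, Il1r2 and Cxcl2, inflammatory genes of mature neutrophils, at 334 UPM (311 to 358) in the ND library and 256 UPM (235 to 278) in the HFD library. It was lowest in the clusters led by Camp, Ngp and Ltf, granule protein genes of neutrophils that are still forming, with 27.3 and 20.6 UPM in the first of them and 14.6 and 13.3 UPM in another. Per2, the period gene whose loss shortens and then abolishes the rhythm, was instead highest there, at 35.8 UPM (29.5 to 43.0) in the ND and 12.4 UPM (9.44 to 16.1) in the HFD library in the Ltf and Camp cluster. The Acod1 cluster had only 12 and 8 Per2 UMIs. The order of Per2 was less clear elsewhere, since the cluster led by Retnlg and Ltf had 6 ND and 0 HFD UMIs (3.88 UPM in the ND library), and in the HFD library the intervals of the Ltf and Ngp cluster (5.31 UPM) and the Acod1 cluster (3.74 UPM) overlapped.

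Per2 (chromosome 1, 91415982 to 91459324, minus strand) was the member with the clearest lower level in the HFD library over all kept cells, 366 against 223 UMIs, 7.61 UPM (6.85 to 8.43) against 4.51 UPM (3.94 to 5.15), a log2 ratio of -0.75 (-1.0 to -0.51). The neutrophil-like class held 261 of the 366 ND and 119 of the 223 HFD UMIs, at 16.2 UPM (14.3 to 18.3) and 6.98 UPM (5.78 to 8.35), with a log2 ratio of -1.21 (-1.54 to -0.90). In the cluster led by Ltf and Ngp the counts were 64 and 18 (27.4 and 5.31 UPM, log2 -2.34, -3.21 to -1.60), and in the cluster led by Ltf and Camp 114 and 58 (log2 -1.52, -2.01 to -1.06). The cluster led by Camp and Ngp had 43 and 30 (log2 -0.42, -1.15 to 0.28). Outside neutrophil-like cells the reading was thin. Mesenchymal-like cells had 37 and 50 UMIs, 7.74 and 7.18 UPM (log2 -0.11, -0.75 to 0.55), macrophage/monocyte-like cells 19 and 8, and the B, T and NK cell-like classes at most 9 in either library. Over 14 alternative settings the log2 ratio of Per2 in neutrophil-like cells lay between -1.46 and -0.97.

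Counting all 10 genes in neutrophil-like cells, 3 were past 1.5-fold lower in the HFD library, Per2, Ciart and Nr1d1, against 8.62% of 10844 genes, and 0 were higher, against 4.2%. Of the 8 dusk members, 7 had at least 20 UMIs there, and 7 of these 7 had a log2 ratio below 0, with a median of -0.51. The median of all genes tested there was -0.07, so most of them lay below 0 as well. The intervals of Per3, Dbp, Nr1d1 and Nr1d2 held 0. Tef had 4 and 7 UMIs and was not compared, and Arntl and Clock stood at -0.03 and 0.11. Nr1d1 rested on 15 and 6 UMIs (log2 -1.34, -3.06 to 0.04), and with cells assigned by marker share rather than by cluster it was 0.046. Other alternatives also put members above 0, namely Dbp at 0.64 with cells thinned to 1000 UMIs, Ciart at 0.43 with equal cluster weights, and Nr1d2 at 0.10 to 0.12 with finer clusters, with a minimum of 200 detected genes and with cells assigned by marker share.

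Other genes that respond quickly to stimuli were also lower in these cells of the HFD library. Of 20 immediate-early and stress genes, 14 were past 1.5-fold lower in neutrophil-like cells of the HFD library, where 8.62% of all genes were, with a median log2 ratio of -0.81, among them Fos (621 and 273 UMIs, -1.19), Jun (-2.06), Egr1 (-1.28) and Klf2 (-1.54). Nr4a1, an orphan receptor induced by many stimuli, was at -0.33. In B cell-like cells 13 of the 20 were lower, against 6.39% of all genes, with a median of -0.77, and in mesenchymal-like cells 3 were lower, against 5.88%, with a median of -0.40. Of the glucocorticoid targets, neutrophil-like Tsc22d3 was at -1.31, Fkbp5 at -0.46 and Klf9 at -0.30. Over all kept cells 20 of the 20 immediate-early and stress genes were below 0 (median -0.44), where the median of all genes lay just above 0. Past 1.5-fold lower were 6 of them (Jun, Zfp36, Klf2, Klf6, Hspa1a and Hspa1b), against 4.38% of all genes. The 15 reference genes of steady expression ranged from -0.27 to 0.09. The part of these responses in the Per levels was not tested.

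Per3 (chromosome 4, 151003652 to 151044665, minus strand), the period gene that the loop can lose and still run, did not differ between the libraries over all kept cells by more than counting error, with 297 and 307 UMIs, 6.17 and 6.21 UPM. Mesenchymal-like cells had 13.2 UPM (10.1 to 16.9) and 14.7 UPM (11.9 to 17.8), a log2 ratio of 0.15 (-0.31 to 0.63). Thinning every cell to 1000 UMIs gave Per3 ratios of -0.66 over all kept cells and -1.83 in mesenchymal-like cells, both below the intervals of the full counts. Mesenchymal-like cells had median depths of 10680 UMIs in the ND and 9556 UMIs in the HFD library. Thinning thus left only a small part of their counts, and the thinned ratios are given without an interval. An unnamed cluster led by Elane, Prtn3 and Mpo, the primary granule genes of early granulocyte precursors, together with hemoglobin genes, held more Per3 than any named class, 135 and 109 UMIs at 18.1 UPM (15.1 to 21.4) and 19.4 UPM (16.0 to 23.5). When clusters were drawn more finely, the Elane, Prtn3 and Mpo cells had 21.9 and 26.0 UPM, and the erythroid-like cells beside them 8.75 and 8.20 UPM. Those finer Elane, Prtn3 and Mpo cells were themselves named neutrophil-like from the markers. The neutrophil-like class without them had 1.68 and 1.17 UPM. Among finer mesenchymal-like clusters, the tenocyte-like cells described below had Per3 at 18.8 UPM (11.9 to 28.2) and 22.9 UPM (16.1 to 31.6). Per3 lies within the annotated span of Camta1 on the same strand, so its reads could be split between both genes.

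Ciart (chromosome 3, 95878503 to 95882251, minus strand) encodes CHRONO, a repressor of BMAL1 and CLOCK, and carries the 3 E-boxes shown above. It had 305 ND and 191 HFD UMIs, 6.34 UPM (5.65 to 7.09) and 3.87 UPM (3.34 to 4.45), a log2 ratio of -0.71 (-0.98 to -0.45), although with every cell thinned to 1000 UMIs the ratio was -0.35. Its HFD level was below its ND level in each of the 5 classes with at least 20 UMIs. Neutrophil-like cells had 91 and 53 UMIs (5.66 and 3.11 UPM, log2 -0.86, -1.38 to -0.36), macrophage/monocyte-like cells 55 and 29 (9.31 and 5.31 UPM, log2 -0.80, -1.51 to -0.14) and mesenchymal-like cells 19 and 10 (3.98 and 1.44 UPM, log2 -1.44, -2.74 to -0.29). T cell-like cells had 21 and 6 UMIs (log2 -1.23, -2.91 to 0.05), and B cell-like cells, where Ciart was highest, 101 and 80 (12.7 and 10.3 UPM, log2 -0.30, -0.74 to 0.14). Of all 10 genes, 1 was lower past 1.5-fold in mesenchymal-like cells, against 5.88% of 12615 genes, 3 in macrophage/monocyte-like cells (Per2, Per3 and Ciart), against 6.78% of 10657 (0 were higher, against 4.32%), and 1 in T cell-like cells, against 11.3% of 8162. In T cell-like cells Per2, Per3 and Nr1d1 had under 20 UMIs and were not compared. In macrophage/monocyte-like cells the intervals of Per2 (log2 -1.08, -2.53 to 0.12) and Per3 (16 and 8 UMIs, log2 -0.84, -2.32 to 0.42) held 0. Per3 was at -0.39 there with a minimum of 200 detected genes. Ciart was at -0.21 with equal cluster weights and -0.40 with clusters over 70% from 1 library left out, both chosen after seeing the data.

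Clusters did not share the lower Ciart evenly. In the Acod1 cluster of neutrophil-like cells it was at 23.2 UPM (17.5 to 30.3) in the ND library and 11.2 UPM (7.20 to 16.7) in the HFD library. A neutrophil-like cluster led by Retnlg and Ltf, with 227 ND and only 21 HFD cells, had the opposite order, 12.3 and 76.1 UPM on 19 and 7 UMIs. The cluster led by Cstdc4 and Stfa2l1 was also higher in the HFD library, at 2.37 and 6.54 UPM on 5 and 14 UMIs. Equal cluster weights, an alternative chosen after seeing the data, gave 0.43 for neutrophil-like Ciart, and leaving out the Retnlg and Ltf cluster, with the cells of the others counted as they were, gave -0.86. In macrophage/monocyte-like cells a cluster led by Ccl2, with 112 ND and 36 HFD cells, had 27 of the 55 ND UMIs and 6 of the 29 HFD UMIs, at 22.7 and 19.0 UPM.

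Nr1d1 (chromosome 11, 98767932 to 98775333, minus strand) encodes REV-ERBα, the haem-binding receptor that represses Arntl, and was the member whose library ratio ranged most widely over the classes compared. Over all kept cells it had 342 ND and 505 HFD UMIs, 7.11 UPM (6.38 to 7.90) and 10.2 UPM (9.35 to 11.2), a log2 ratio of 0.52 (0.32 to 0.73) that was 0.28 with equal class weights. Mesenchymal-like cells held 140 and 333 of these UMIs, at 29.3 UPM (24.6 to 34.6) and 47.8 UPM (42.8 to 53.3). Their log2 ratio of 0.70 (0.42 to 1.00) was the 1 past 1.5-fold higher among the 10 genes in that class, where 8.02% of 12615 genes were higher, and with likely doublets left out it was 0.45. B cell-like cells had 47 and 20 UMIs, 5.92 UPM (4.35 to 7.87) and 2.58 UPM (1.58 to 3.99), a log2 ratio of -1.18 (-2.03 to -0.41), the 1 member lower past 1.5-fold there, against 6.39% of 11212 genes, with 0 higher, against 4.14%. Per2 had under 20 UMIs there and was not compared. The Vpreb3 and Pclaf cluster held 20 and 4 of the Nr1d1 UMIs (log2 -2.27, -4.41 to -0.83) and the Iglc2 cluster 14 and 5. In the Vpreb1 cluster the counts were 9 and 9. The opposite signs in mesenchymal-like and B cell-like cells were not tested against each other, since each diet is 1 library. Macrophage/monocyte-like cells had 17.4 and 17.2 UPM (log2 -0.02, -0.44 to 0.40). NK cell-like cells had 0 UMIs in both libraries, which allows up to 4.04 and 4.69 UPM.

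Within the mesenchymal-like class the library ratio of Nr1d1 was largest in fibroblast progenitor-like cells. Finer clusters divided the class into a fibroblast progenitor-like group led by Prg4, Dcn and Myoc (247 ND and 380 HFD cells), a tenocyte-like group with Chad and Fmod, cartilage and tendon matrix genes, among its leading genes (103 and 159), and an osteoblast-like group led by Col1a1, the main bone collagen gene, with Bglap2 (57 and 128). In the fibroblast progenitor-like cells Nr1d1 had 33 ND and 154 HFD UMIs, 10.8 UPM (7.45 to 15.2) and 36.2 UPM (30.7 to 42.4), a log2 ratio of 1.73 (1.19 to 2.33). In the tenocyte-like cells, where Nr1d1 was highest, it was 81.7 UPM (66.5 to 99.4) and 91.7 UPM (77.5 to 108), a log2 ratio of 0.16 (-0.21 to 0.55). Osteoblast-like cells had 7 and 31 UMIs, 13.8 and 28.2 UPM, with a log2 ratio of 0.95 (-0.18 to 2.46). The progenitor-like interval lay wholly above that of the tenocyte-like cells.

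**Figure D4:**
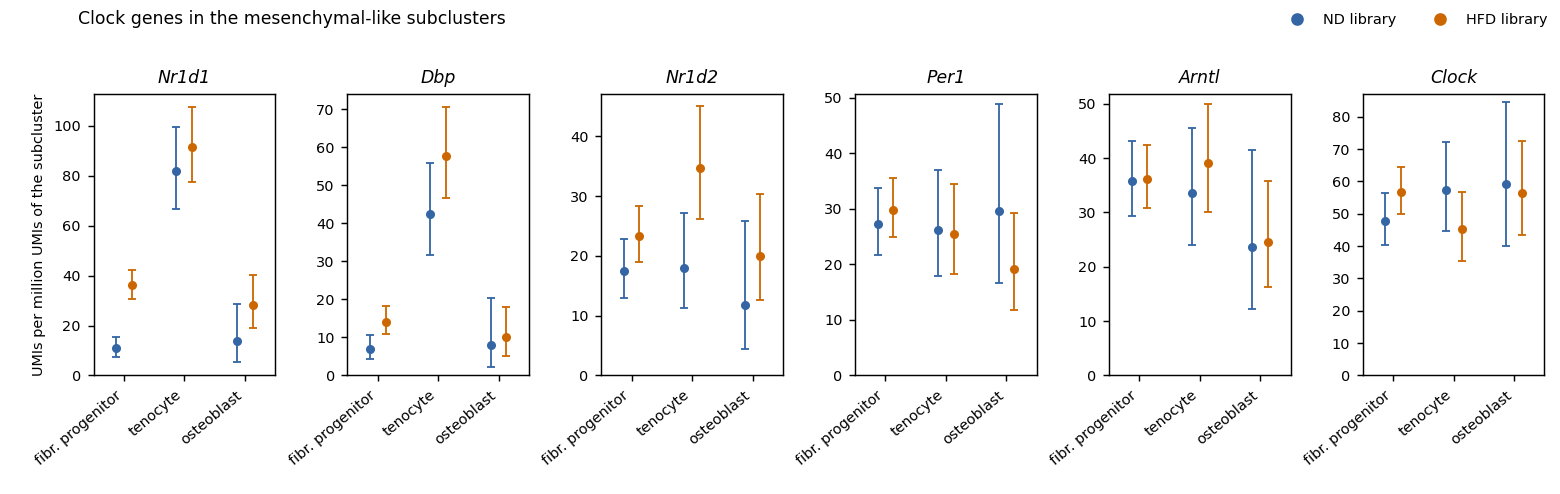
Levels of 6 clock genes (UMIs per 1000000 UMIs of the subcluster) in fibroblast progenitor-like, tenocyte-like and osteoblast-like cells, with 95% Poisson intervals, the ND library in blue and the HFD library in orange. Nr1d1 in fibroblast progenitor-like cells is at 10.8 in the ND library and 36.2 in the HFD library, while Arntl is at 35.8 and 36.2 in the same cells.

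Tenocyte markers also differed within the fibroblast progenitor-like cells. The 7 tenocyte markers, 7 of 7 with UMIs in both libraries, summed to 542 UPM in the ND and 1023 UPM in the HFD library, and the 10 neutrophil markers, which these cells should not make, to 23804 and 11091 UPM. With every cell that held a UMI of a tenocyte marker left out, a choice made after seeing the data, 166 ND and 249 HFD cells remained, and Nr1d1 was at 12.7 and 34.8 UPM on 26 and 92 UMIs (log2 1.44, 0.82 to 2.14). Nr1d1 was seen in 10.9% of 247 ND and 21.3% of 380 HFD progenitor-like cells. Cells of 1 library are not replicates of a diet, so these shares are descriptions. With cells thinned to 1000 UMIs, and 0 ND and 3 HFD cells left out as shallower, the shares were 0.405% and 3.18%. In NK cell-like cells, the class with the lowest share, 0 of 135 and 0 of 109 cells had a UMI, which allows shares up to 2.22% and 2.75%, at median depths of 5059 and 5258 UMIs against 11021 and 10280 in progenitor-like cells.

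Nr1d1 overlaps the 3′ end of Thra, a thyroid hormone receptor gene on the opposite strand, and the strand setting of the counting was not stated in the labels or methods read here. Thra was higher in the HFD library over all kept cells (1475 and 2280 UMIs, log2 0.59). In fibroblast progenitor-like cells it had 147 and 160 UMIs (log2 0.12), and in B cell-like cells 66 and 82 (log2 0.35), against Nr1d1 ratios of 1.73 and -1.18. Over all kept cells the Nr1d1 ratio was 0.52, beside 0.59 for Thra. Any part of Thra reads in the Nr1d1 counts was not tested.

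Nr1d2 (chromosome 14, 18204054 to 18239127, minus strand), which encodes REV-ERBβ, had 319 ND and 439 HFD UMIs, 6.63 UPM (5.92 to 7.40) and 8.88 UPM (8.07 to 9.76), a log2 ratio of 0.42 (0.21 to 0.63). Mesenchymal-like cells had 17.0 UPM (13.5 to 21.1) and 25.4 UPM (21.8 to 29.5), with a log2 ratio of 0.58 (0.20 to 0.98), just inside 1.5-fold. That ratio was -0.018 with every cell thinned to 1000 UMIs, on fewer UMIs and given without an interval. Of their groups the tenocyte-like cells had the largest Nr1d2 ratio, 22 against 56 UMIs, 18.0 and 34.7 UPM (log2 0.93, 0.21 to 1.73), and progenitor-like cells one of 0.42 (-0.07 to 0.93). Without cells holding a tenocyte marker UMI, the progenitor-like Nr1d2 ratio was 0.04 (-0.56 to 0.65). In osteoblast-like cells Nr1d2 had 6 and 22 UMIs and a log2 ratio of 0.67 (-0.59 to 2.35), beside 0.95 for Nr1d1. B cell-like cells had 7.68 and 8.52 UPM (log2 0.15, -0.37 to 0.68), without the lower level of Nr1d1.

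Resident macrophages also expressed both REV-ERB genes, and T cell-like cells had Nr1d2 at 17.7 and 23.6 UPM. The cluster led by C1qa and C1qc, complement genes of resident macrophages (89 ND and 88 HFD cells), had Nr1d1 at 51.3 UPM (39.4 to 65.8) and 51.8 UPM (38.5 to 68.1), a log2 ratio of 0.01 (-0.55 to 0.57). Its Nr1d2 was at 34.8 and 36.5 UPM, Clock at 52.2 and 48.7 UPM and Arntl at 27.3 and 22.3 UPM. The monocyte cluster led by Ms4a6c and F13a1 had Nr1d1 at 10.3 and 9.85 UPM, and Clock at 20.5 and 19.0 UPM. Of these genes, 0 had an interval of the library ratio that left out 0 in either cluster, whereas their levels differed between the clusters in both libraries.

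Dbp (chromosome 7, 45705088 to 45710203, plus strand), a direct BMAL1 and CLOCK target of large amplitude, had 294 ND and 362 HFD UMIs, 6.11 UPM (5.43 to 6.85) and 7.33 UPM (6.59 to 8.12), a log2 ratio of 0.26 (0.04 to 0.49) that was -0.10 with cells thinned to 1000 UMIs. Mesenchymal-like cells had 16.1 UPM (12.7 to 20.1) and 23.6 UPM (20.1 to 27.5), a log2 ratio of 0.54 (0.15 to 0.96), and neutrophil-like and B cell-like cells had ratios of -0.24 (-0.87 to 0.38) and -0.09 (-0.59 to 0.41). Like Nr1d1, Dbp was highest in tenocyte-like cells, at 42.5 UPM (31.7 to 55.7) and 57.6 UPM (46.5 to 70.6). In progenitor-like cells it had 21 and 60 UMIs, 6.89 UPM (4.26 to 10.5) and 14.1 UPM (10.8 to 18.2), with a log2 ratio of 1.01 (0.30 to 1.83) that was 0.65 (-0.20 to 1.60) without cells holding a tenocyte marker UMI. Past 1.5-fold, 2 of the 10 genes, Nr1d1 and Dbp, were higher in progenitor-like cells, against 9.75% of 11430 genes, and 0 lower, against 5.86%. Ciart had under 20 UMIs there and was not compared. Dbp overlaps Sphk2 on the opposite strand.

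Tef (chromosome 15, 81802421 to 81826863, plus strand), the PAR bZIP factor of smaller amplitude, had 282 ND and 359 HFD UMIs, 5.86 UPM (5.20 to 6.59) and 7.27 UPM (6.53 to 8.06), a log2 ratio of 0.31 (0.08 to 0.54). Over the alternative settings the ratio over all kept cells lay between 0.12 and 0.33. Mesenchymal-like cells had 20.1 and 20.5 UPM (log2 0.03, -0.35 to 0.42) and B cell-like cells 9.82 and 10.6 UPM (log2 0.11, -0.36 to 0.57). Tef did not share the progenitor-like difference of Nr1d1 and Dbp, at 19.7 and 19.8 UPM there. Without cells holding a tenocyte marker UMI its log2 ratio there was -0.42 (-1.02 to 0.17). It was past 1.5-fold higher in T cell-like cells on 11 and 12 UMIs (log2 0.62, -0.68 to 1.95), where 6.38% of genes were.

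The other clock genes of the mesenchymal groups were mixed. In progenitor-like cells Hlf, the third PAR bZIP factor, had 33 and 71 UMIs (log2 0.61), Bhlhe41, a repressor at E-boxes, 28.5 and 47.3 UPM (log2 0.72), and Nfil3, the repressor that competes with DBP at D-boxes, 145 and 102 UPM (log2 -0.51). Arntl was at 35.8 and 36.2 UPM and Per1 at 27.2 and 29.9 UPM in the same cells, with log2 ratios of 0.02 (-0.34 to 0.39) and 0.13 (-0.28 to 0.55). Per2 was at 10.5 and 7.53 UPM (log2 -0.48, -1.23 to 0.27), and without cells holding a tenocyte marker UMI at log2 -0.68 (-1.61 to 0.22). Of the members, Nr1d1 and Dbp were thus the ones whose intervals left out 0 in these cells. In the tenocyte-like cells Nr1d2 was the 1 member past 1.5-fold higher, against 10.4% of 9557 genes, with 0 lower, against 8.25%. In osteoblast-like cells Nr1d1 and Nr1d2 were higher, against 11.4% of 7540 genes, and Per1 lower (15 and 21 UMIs, log2 -0.64, -1.66 to 0.43), against 10.8%. Each of these osteoblast-like intervals held 0. Under 20 UMIs and not compared were Per2 and Ciart in tenocyte-like cells, and Per2, Per3, Dbp and Ciart in osteoblast-like cells.

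Of 24 further genes of the loop and its close modifiers, 3 were past 1.5-fold higher over all kept cells, against 11.1% of all genes, and 0 lower, against 4.38%, with a median log2 ratio of 0.06 beside 0.03 for all genes. They were Npas2, the relative of Clock (121 and 204 UMIs, 0.71), Arntl2, the relative of Arntl (9 and 25 UMIs, 1.39), and Rorb, an activator at ROREs (58 and 98 UMIs, 0.71). Cry1 and Cry2, the cryptochrome repressors, were at -0.15 (18.3 and 16.5 UPM) and 0.22, and Nfil3 was at -0.14. In mesenchymal-like cells, of 22 such genes with at least 20 UMIs, Arntl2 was higher (0.98) and Nfil3 lower (-0.62), against 8.02% and 5.88% of all genes, while Npas2, Cry1 and Cry2 stood at 0.28, -0.26 and 0.01.

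Glucocorticoid targets, read because the hormone itself follows the day, were mixed as well. Of 12 over all kept cells, Angptl4 (1.28) and Pdk4 (0.59), genes also induced by fatty acids, were higher past 1.5-fold, against 11.1% of all genes, and Ddit4 (-0.67) lower, against 4.38%, with a median of -0.17. Tsc22d3 was at -0.47, Fkbp5 at -0.29 and Klf9 at 0.27. In mesenchymal-like cells 5 of the 12 were lower, against 5.88% of all genes, and 1 higher, against 8.02%, with Fkbp5 at -0.94 and Tsc22d3 at -0.46. Their part in the clock gene levels was not tested.

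Genes with levels most like those of a member were sought across 12 units, the 6 classes in each library, by Pearson's r of log2(UPM + 1) among 11881 genes. The 5 most like Per1 were Arih2 (r = 0.972), Unc13d (0.960), Vasp (0.959), Lcp1 (0.954) and Dennd4a (0.953). The 5 most like Arntl were Pla2g12a (0.974), Hibadh (0.970), Mnd1 (0.970), Dzip3 (0.968) and Sec63 (0.968). The units share 2 libraries and each class enters once per library, so these values describe the pattern over classes.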

How the data were processed

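Cells of 1 pooled ND and 1 pooled HFD library were compared. Per the submitters' processing notes and the file headers, the authors counted reads with Cell Ranger 6.0.1 on mm10 and deposited raw UMI counts per gene and barcode, which are whole numbers and not normalized. Strand and intron settings were not stated in the labels or methods read. The study's cell filter (more than 500 and fewer than 8000 genes, less than 20% mitochondrial UMIs) was applied. Clustering used Seurat 5.3.0 (SCTransform with cell cycle scores regressed out) in R 4.3.3, with 30 principal components and a resolution of 0.5, with the clock genes left out of the variable features, and clusters were named from marker lists. The mesenchymal-like groups came from a resolution of 1. The Scrublet threshold marked only 9 ND and 23 HFD cells, so doublets were kept, and the 5% with the highest scores in each library (327 and 334 cells) were left out as an alternative.

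UMIs were summed per class and library, over 48106513 ND and 49411888 HFD UMIs in all. Levels have exact Poisson intervals, and ratios (0.5 added to each count, genes with at least 20 UMIs) have exact conditional binomial intervals. Both cover counting error only. The ratio step was tested on simulated data. Counts past 1.5-fold are descriptions, with no test, because each diet is 1 library. Sums and intervals were computed with scipy 1.17.1, numpy 2.4.6, pandas 2.3.3 and scanpy 1.11.5 under Python 3.11.15. Gene positions are from GENCODE for mm10. The genes named are the 10 members, genes of the other lists past 1.5-fold over all cells, fixed examples of those lists (Fos, Egr1, Nr4a1, Tsc22d3, Fkbp5, Klf9, Cry1, Cry2, Npas2 and Nfil3) and the 5 genes most like Per1 and Arntl. Thra, Hlf, Bhlhe41, Jun and Klf2 in single classes, and the clusters described, were chosen after their values were seen. The members and lists were chosen with earlier results of these data known. Alternatives changed the cell filter, doublets, depth, scaling, minimum count, fold, clustering and class weights.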

Additional observations from a re-analysis of the deposited data

Results flagged for a closer look

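Nr1d1, the gene of REV-ERBα, had log2 ratios of HFD over ND on opposite sides of 0 in 2 of the classes, with counting intervals that left out 0 in both. In mesenchymal-like cells the ratio was 0.70 (29.3 UPM in the ND library and 47.8 UPM in the HFD library), and in B cell-like cells it was -1.18 (5.92 and 2.58 UPM). Of the 47 ND and 20 HFD UMIs in B cell-like cells, the Vpreb3 and Pclaf cluster held 20 and 4. The difference between the classes was not tested, because each diet is 1 library.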

How the results depend on the processing

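No paired analysis was possible because the barcodes carry no replicate number, and no library could be left out because each diet has 1. Of the alternative values of single clock genes, 734 stayed within the counting interval of the value in the text, 25 moved further (18 of them with cells thinned to 1000 UMIs) and 2 of genes past 1.5-fold changed sign, Nr1d1 in neutrophil-like cells (0.046 with cells assigned by marker share) and Ciart in neutrophil-like cells (0.43 with equal cluster weights, chosen after seeing the data). Of all 761, 65 had the other sign, 62 of them where the interval in the text held 0. Values with cells thinned to 1000 UMIs rest on fewer UMIs than the intervals they were set against. Over all kept cells, thinning gave 1 clock gene past 1.5-fold higher in place of 0, Nr1d1 at 0.79, and a median of the dusk members of -0.23 in place of 0.14. At a fold of 2, 0 were lower in place of 2. Of the other clock genes, 1 was higher in place of 3 with equal class weights and 1 at a fold of 2, and the activator median was 0.11 in place of 0.25 with equal class weights. In mesenchymal-like cells the count higher, 1 in the text, was 0 with doublets left out and at a fold of 2. It was 2 with thinning, at resolution 0.25, when clustering left out immediate-early genes and with a minimum of 200 detected genes, and 3 with equal cluster weights, chosen after seeing the data. The count lower was 0 in place of 1 at a minimum of 100 UMIs. T and NK cell-like classes gave no value at resolution 0.25, where they were not named. Per2 in neutrophil-like cells and over all kept cells, Ciart in mesenchymal-like cells and Nr1d1 in B cell-like cells stayed past 1.5-fold in each alternative that compared them. The last 2 of these were compared in 11 alternatives each, against 13 for Nr1d1 in mesenchymal-like cells. The minimum of 100 UMIs was among the settings without a comparison for them. The causes were not tested. Under 20 UMIs per class, as for Per2 in B cell-like cells, no library ratio was given.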
